A study of Homo sapiens with 20 samples.

Results

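The 53 genes described here build and run the mitotic spindle, separate the chromosomes and cut the dividing cell apart. They were taken as a list of gene symbols, by a rule that uses no measured value, from the 46425 genes of an RNA-seq time course of HUDEP-2 cells, and all 53 were found. HUDEP-2 is a human erythroid progenitor line from umbilical cord blood, wild type here, whose growth rests on human papillomavirus oncogenes under a doxycycline-controlled promoter. Cells were sampled before differentiation (day 0, proerythroblast stage) and then daily to day 8 and again on day 12 of differentiation, 2 samples on each of the 10 days, and the study places days 4 to 6 at the basophilic, day 8 at the polychromatic and day 12 at the orthochromatic and reticulocyte stage. All groups are the same immortalized line. Day 0 cells grew in serum-free expansion medium with erythropoietin (EPO), stem cell factor (SCF), doxycycline and, per the study's methods, the glucocorticoid dexamethasone. The other days were in an IMDM-based differentiation medium with EPO, SCF and doxycycline, without dexamethasone and with human holo-transferrin, AB human serum, heparin and human insulin. SCF was left out from day 6 and doxycycline from day 8. The effects of these changes of medium and that of time cannot be told apart.

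Entry into mitosis is driven by active cyclin-dependent kinase 1 bound to cyclin A or cyclin B, and the Aurora and Polo kinases then drive spindle assembly. Kinetochores tie each chromosome to microtubules, the spindle checkpoint holds back the anaphase-promoting complex until all are attached, and a contractile ring placed by the central spindle divides the cytoplasm. Erythroblasts are known to divide a few times while they fill with haemoglobin, then to leave the cell cycle and expel the nucleus. These are bulk samples, in which fewer dividing cells and less RNA per cell cannot be told apart. The study calls the samples of days 0 and 8 biological replicates, and the labels do not say which samples came from separate cultures, so p-values measure the spread between these samples.

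Each day had a library in the tables of separate days (0 to 6, 7 and 8, and 12), called the first here. Each day also had a library in the table of all days, called the second. The names carry no order and pair nothing. Among the first libraries, day 8 stood in another table than days 0 to 6 and than day 12. Table and day cannot be told apart there. Depth was 52131713 to 70358198 counts per library. The erythroid markers were present throughout, with the 9 genes together at 31333 to 611878 TPM, the abundance of transcripts scaled for their length and for the library, while CD3D, the highest of the other lineages' 11 markers, reached 2.62 TPM, and 6 of those 11 stood at 0 in all libraries. Ribosomal RNA took 18.5% and 17.5% of the counts of the first libraries of days 7 and 8, against 1.03% to 4.08% in the other 18, and globin took 0.859% and 0.819% on day 0 and 28.2% and 33.7% on day 12. Both take a share of the total that TPM is scaled to, and their part in the results was not tested beyond the alternatives given. Levels are given in TPM and changes as log2 fold changes of counts scaled by trimmed mean of M-values (TMM), and a call is an adjusted p under 0.05 over all genes in edgeR's quasi-likelihood test.

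Mitosis genes stayed high for 8 days and were far lower on day 12. Their summed TPM was 5053 and 5583 on day 0, 7615 and 6086 on day 5, 5099 and 6178 on day 8, then 163 and 115 on day 12. The median member stood at 81.0 and 86.4 TPM on day 0, at 68.6 and 92.4 on day 8, and at 1.34 and 0.811 on day 12. From day 0 to day 8 the highest and the lowest daily mean TPM of a gene differed by 1.26-fold (SGO1) to 1.89-fold (PRC1), under 2-fold for all 53. In each of the 18 libraries of days 0 to 8, all 53 genes were at 10 TPM or more, while on day 12 only 5 were in the first library and 2 in the second.

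**Figure D1:**
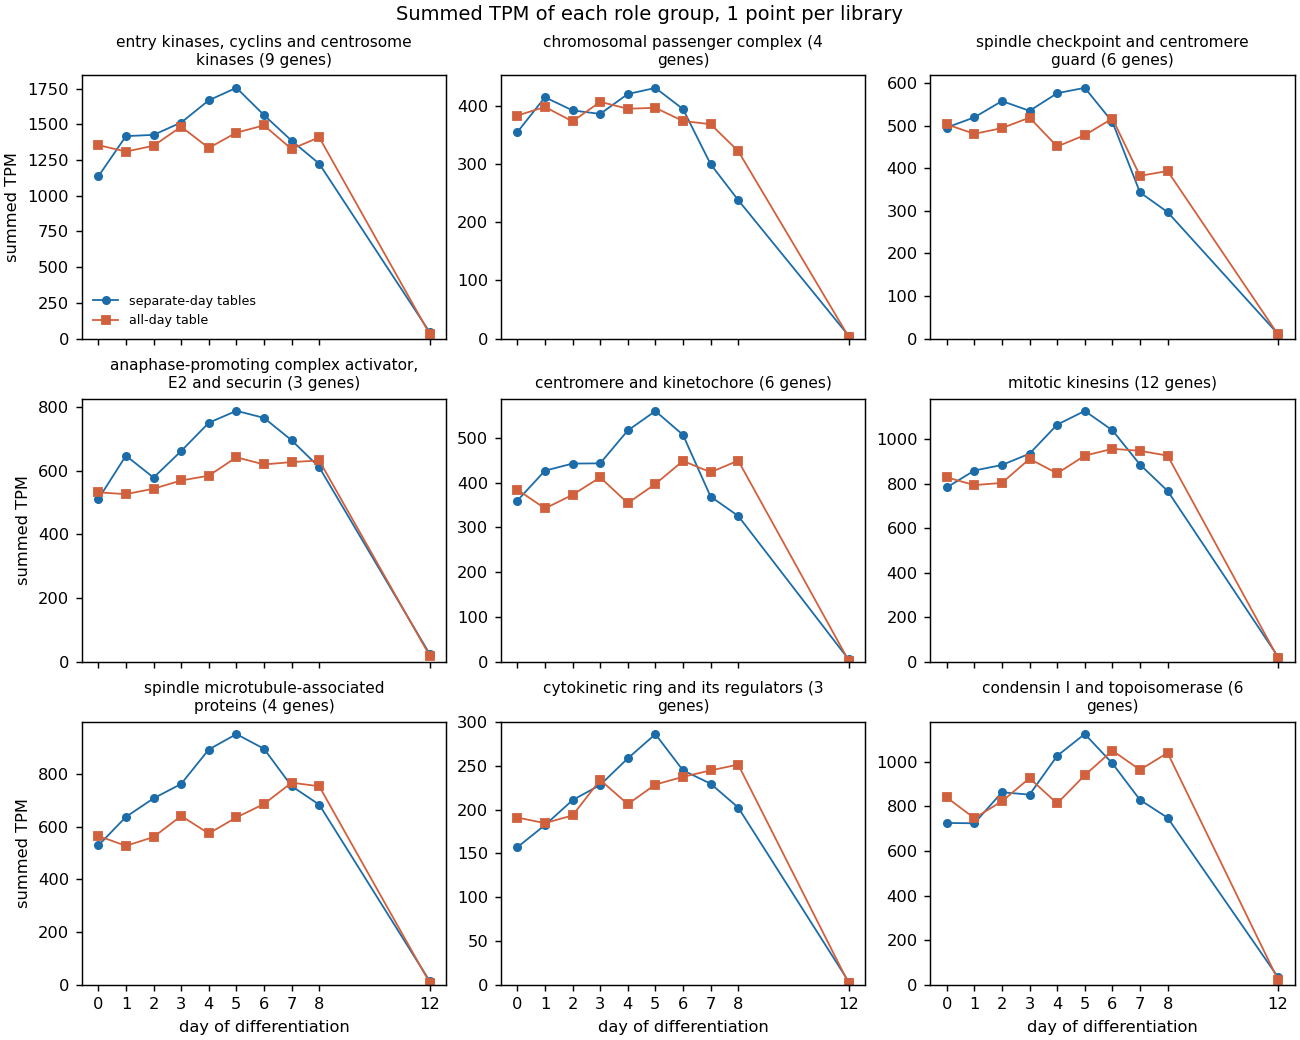
Summed TPM of each of 9 role groups (vertical axes, from 0) against day of differentiation, with 1 point per library, circles for the tables of separate days and squares for the table of all days. All groups drop close to 0 on day 12, and 6 of the 9 are lower on day 7 than on day 6 in both libraries. In TMM-scaled counts, not drawn, the sum of all groups was higher on day 7 than on day 6 in both libraries.

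Day 8 was set against day 0 to ask how the mitotic programme stood when cells reached the polychromatic stage. On the TMM scale 26 of the 53 genes rose and 0 fell, where 11.5% of the 14829 genes tested rose and 13.7% fell. The median log2 fold change was 0.66 over the 53, with 50 above 0, and -0.01 over all genes. On the TPM scale the picture differed: limma on log2(TPM + 1) called 4 of the 53 higher (PRC1, CDK1, SMC2 and NUSAP1) and 0 lower, with 27 above and 26 below 0 and a median of 0.05, while the median of all genes fell by 0.44 and its calls were 5.01% higher and 29% lower. The calls did not hold when either day 0 library was left out, where calls among all genes also became few. The medians of the 53 were then 0.60 without the first and 0.62 without the second. Without the day 8 library rich in ribosomal RNA the median was 0.71, and without the other day 8 library 0.62.

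The group that starts mitosis was mixed. CDK1 (chr10:60778331-60794852, hg38), the kinase whose activity defines mitotic entry, stood at 171 and 166 TPM on day 0 and at 278 and 291 on day 8. Both day 8 values lay above both day 0 values, and the log2 fold change was 1.38 ± 0.18 (SE; adjusted p = 0.0106, edgeR). NEK2, a kinase that splits the centrosomes, went from 41.4 and 57.4 to 90.5 and 78.7 TPM, a log2 fold change of 1.41 ± 0.25 (adjusted p = 0.0198). CCNA2, cyclin A2 and the member of this group with the highest mean TPM, read 217 and 253 TPM on day 0 and 217 and 272 on day 8, overlapping in TPM, with a log2 fold change of 0.66 ± 0.16 on the TMM scale (adjusted p = 0.0407). Of the 9 genes 5 rose (CCNB2 and CDC25C were the others), and CCNB1, PLK1, PLK4 and AURKA did not pass. CCNB1, cyclin B1, had 240 and 283 TPM on day 0 and 163 and 190 on day 8 (log2 fold change 0.04 ± 0.16, adjusted p = 0.859), and PLK1, the Polo kinase, 154 and 180 against 108 and 128 (0.11 ± 0.16, adjusted p = 0.636). Their levels in TPM were lower on day 8 without overlap, while the log2 fold changes on the TMM scale were near 0.

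Of the 4 chromosomal passenger genes 0 were called, and of the 6 genes of the checkpoint and centromere guard 1 rose, SGO1, the shugoshin that protects centromeric cohesin, beside the 11.5% of all genes that rose. AURKB, the passenger kinase that corrects wrong attachments, was at 146 and 136 TPM on day 0 and at 73.9 and 107 on day 8 (log2 fold change -0.04 ± 0.17, adjusted p = 0.87). BUB1, a checkpoint kinase at the kinetochore, was at 126 and 139, then at 68.6 and 95.0 TPM (-0.09 ± 0.16, adjusted p = 0.71). MAD2L1, the checkpoint protein that binds CDC20, had the lowest value of the 53, with 51.4 and 51.6 TPM on day 0 and 22 and 33.8 on day 8 (-0.30 ± 0.18, adjusted p = 0.27). These were the 3 genes below 0. BUB1B, another checkpoint kinase, and TTK, which starts checkpoint signalling, had log2 fold changes of 0.18 ± 0.16 and 0.27 ± 0.16, neither called. SPC25 of the kinetochore, CENPA, the histone that marks centromeres, and the kinesin KIF20B lay at 0.08 ± 0.19, 0.10 ± 0.22 and 0.01 ± 0.19. Whether role groups differed from each other was not tested.

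Large rises were also found among genes of the central spindle, the ring and condensin. PRC1 (chr15:90966038-90994576, hg38), which bundles the microtubules of the central spindle, had the largest of the 53, 1.47 ± 0.16 on the log2 scale or 2.77-fold (adjusted p = 0.00813). Its TPM was 90.1 and 98.5 on day 0 and 155 and 186 on day 8, with the highest first library on day 5 at 194 and the highest second library on day 8. NUSAP1, which bundles spindle microtubules and had the highest mean TPM of its group, went from 195 and 194 to 324 and 303 TPM (1.33 ± 0.20, adjusted p = 0.0144). All 3 genes of the cytokinetic ring rose: ANLN, the anillin scaffold, by 1.20 ± 0.18, RACGAP1 of centralspindlin by 0.92 ± 0.16 and ECT2, the exchange factor that turns on RhoA, by 0.96 ± 0.16. For PRC1, NUSAP1, ANLN, RACGAP1 and ECT2 both day 8 values in TPM lay above both day 0 values. The 3 ring genes were called on the TMM scale only. Limma on log2(TPM + 1) gave 0.57 for ANLN, 0.30 for RACGAP1 and 0.34 for ECT2, none called.

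SMC2, a core subunit of condensin, read 71.3 and 78.4 TPM on day 0 and 110 and 137 on day 8 (1.33 ± 0.16, adjusted p = 0.00961). TOP2A, the topoisomerase that untangles sister chromatids, had 227 and 278 TPM on day 0 and 242 and 354 on day 8, overlapping, with 0.84 ± 0.20 on the TMM scale (adjusted p = 0.0378). Of the 6 condensin I and topoisomerase genes 4 rose, and NCAPD2 and NCAPH did not pass. Of the 6 kinetochore genes 2 rose, NUF2 and NDC80, partners in the microtubule-binding complex, the latter from 83.5 and 109 to 111 and 155 TPM (1.07 ± 0.19, adjusted p = 0.0201). Of the 12 kinesins 6 rose, and KIFC1, the one with the highest mean TPM, did not pass (163 and 131 TPM on day 0, 148 and 159 on day 8). PTTG1, securin, which had the highest mean TPM of all 53, rose from 266 and 263 to 345 and 314 TPM (0.99 ± 0.21, adjusted p = 0.0289).

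**Figure D2:**
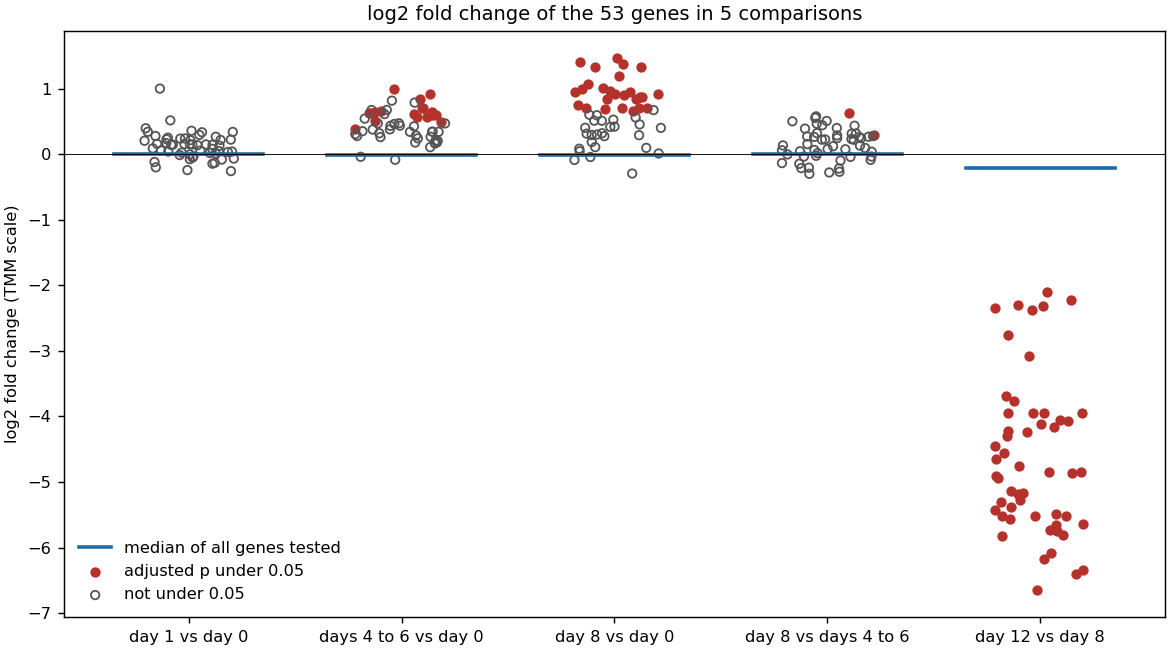
log2 fold change on the TMM scale (vertical axis) of the 53 genes in 5 comparisons, with filled points for an adjusted p under 0.05, open points for the rest, and a bar at the median of all genes tested. Points sit between -0.30 and 1.47 in the comparisons up to day 8, and between -6.65 and -2.11 from day 8 to day 12, where all are filled.

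Fewer genes were called by the basophilic stage. From day 0 to days 4 to 6, in a fit of all 20 libraries, 18 of the 53 genes rose and 0 fell, beside 7.38% higher and 9.22% lower of 16784 genes. The median was 0.46, and 51 genes were above 0. PRC1 again led, with 0.99 ± 0.18 (adjusted p = 0.0024), followed by ANLN with 0.92 ± 0.17 (adjusted p = 0.00217) and NEK2 with 0.84 ± 0.22 (adjusted p = 0.0165). SPC25 (-0.09 ± 0.38), MAD2L1 (-0.04 ± 0.16) and CENPA (0.11 ± 0.28) were lowest. The 2 libraries of a day disagreed on the size: within the first libraries alone the median was 0.63, and within the second 0.26. Fewer genes were called with either day 0 library left out, among the 53 and among all genes. The median of the 53 was then 0.45 without the first and 0.48 without the second. On the TPM scale limma on log2(TPM + 1) called 11 of the 53 higher and 0 lower, beside 4.53% and 14% of all genes. With first and second libraries as a block 33 were higher, beside 12.6% of all genes.

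Between days 4 to 6 and day 8 the count of calls depended on the fit. SMC2 (0.62 ± 0.11, adjusted p = 0.00199) and KIF22, a chromosome-arm kinesin named after its values were seen (0.29 ± 0.08, adjusted p = 0.0244), were the 2 genes called higher, and 0 were lower, where 11.9% of all genes tested rose and 10.8% fell. CDK1 (0.58 ± 0.24, adjusted p = 0.0948) and NEK2 (0.55 ± 0.20, adjusted p = 0.0602) had the largest values after SMC2 and were not called. The first libraries alone had a median of -0.04 with 24 genes above 0, and the second a median of 0.42 with 47 above 0. With first and second libraries as a block 13 genes were higher and 0 lower, beside 17.5% and 18.9% of all genes. BUB1B, BUB1 and MAD2L1 had the lowest values, at -0.30 ± 0.17, -0.28 ± 0.15 and -0.27 ± 0.17. On the TPM scale the direction turned, with 0 higher, 13 lower and 46 of 53 below 0 (median -0.24, beside -0.23 for all genes, of which 4.14% were higher and 31.1% lower), and KIF22 stood at -0.15. In TPM 6 of the 9 role groups were lower on day 7 than on day 6 in both libraries, the checkpoint group at 509.5 and 518, then 344 and 383, and the entry kinases and cyclins at 1566 and 1494, then 1386 and 1328. BUB3, which carries BUB1 to kinetochores, went from 102 and 93.4 to 67.4 and 72.6 TPM over that day. Its TMM-scaled levels, in CPM (counts scaled to the library total after TMM), were 243 and 212 CPM on day 6. On day 7 they were 236 and 217, so the libraries of the 2 days overlapped on that scale. The summed TMM-scaled counts of the 53 genes rose in both libraries, from 10715 and 9135 CPM on day 6 to 10978 and 11091 on day 7.

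After 1 day in differentiation medium 0 of the 53 genes were called, where 0.262% of all genes rose and 0.131% fell. At an unadjusted p under 0.05 there were 4 higher and 0 lower, DESeq2 also called 0, and the median was 0.14. UBE2C, the ubiquitin-conjugating enzyme of the anaphase-promoting complex, had the largest value, 1.00 ± 0.42 (adjusted p = 0.471, edgeR), with 50.7 and 45.0 TPM on day 0 and 116 and 62.4 on day 1. CDK1 (0.51 ± 0.30) and NDC80 (0.39 ± 0.24) followed, and ASPM (-0.26 ± 0.24), KIF15 (-0.24 ± 0.20) and SPC25 (-0.20 ± 0.47) were lowest. The first libraries alone had a median of 0.25 with 44 genes above 0, and the second a median of -0.04 with 22 above 0, so the medians of the libraries differed in sign.

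Day 12 was set against day 8 to follow the genes into the orthochromatic and reticulocyte stage. All 53 fell, where 33.4% of the genes tested fell and 23.8% rose. The median log2 fold change was -4.86 over the 53 and -0.20 over all genes, and for each of the 53 both day 12 libraries lay below all 18 other libraries, in TPM and on the TMM scale. Their share of all counts dropped from 0.858% and 1.12% on day 8 to 0.0399% and 0.0297% on day 12. The call held for all 53 without the day 8 library rich in ribosomal RNA (median -4.96), and limma on log2(TPM + 1) also called 53 lower (median -5.08, beside -0.68 for all genes, of which it called 8.38% higher and 53.6% lower).

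SPC25, TOP2A and KIF15 had the lowest fitted values. SPC25 (chr2:168865045-168890443, hg38), a subunit of the NDC80 complex, had 26.1 and 33.0 TPM on day 8 and 14 and 0 counts on day 12, so that its fitted log2 fold change of -6.65 ± 0.68 (adjusted p = 1.8e-06) rests on a count of 0. It was -5.72 without the second day 12 library and -13.59 without the first, and -4.78 with limma on log2(TPM + 1). In the first libraries 1.95% of its TMM-scaled count was left, more than for TOP2A (1.65%), KIF15 (1.70%) and AURKB (1.82%). A count of 0 allows up to 3 counts in that library, or 0.106 CPM on the TMM scale. TOP2A (chr17:40388525-40417902, hg38) went from 242 and 354 TPM to 1.85 and 0.816, with 473 and 250 counts left, a log2 fold change of -6.40 ± 0.27 or 84.5-fold (adjusted p = 4.5e-10). KIF15, a kinesin that helps keep the spindle bipolar, went from 29.9 and 48.0 TPM to 0.226 and 0.115 (-6.34 ± 0.26, adjusted p = 3.8e-10). On day 12, 13 genes had under 100 counts in the first library and 19 in the second, which limits the precision of their level but leaves them far below day 8.

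The most abundant genes of several other groups lay between. AURKB went from 73.9 and 107 TPM to 0.540 and 0.303 (-6.08 ± 0.20), NDC80 from 111 and 155 to 1.31 and 0.483 (-5.81 ± 0.30), and BUB1 from 68.6 and 95.0 to 1.17 and 0.550 (-5.13 ± 0.21). KIFC1 fell by 4.84 ± 0.30, NUSAP1 by 4.64 ± 0.51 and RACGAP1 by 4.45 ± 0.21 on the log2 scale. CDK1 and PRC1 are not the most abundant of their groups and were named here after their values were seen. CDK1 kept 4.02 and 3.60 TPM (-4.76 ± 0.35) and PRC1 5.40 and 3.03 TPM (-3.94 ± 0.24). All of these passed the test.

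A small set was left at a higher level. Over all 53 genes the TMM-scaled count on day 12 was a median of 4.02% of the day 8 count in the first libraries and 2.78% in the second. For 8 genes it was above 10% in both, between 10.5% and 24.5%, and the highest value among the other 45 was 8.33%. The 8 were BUB3, UBE2C, NCAPD2, AURKA, KIF22, SMC4, CCNA2 and PTTG1, of which AURKA, KIF22 and SMC4 were named after their values were seen. BUB3 (chr10:123154244-123170467, hg38) kept 7.08 and 8.07 TPM of 64.0 and 71.5 (-2.11 ± 0.21, adjusted p = 1.5e-06). UBE2C kept 3.31 and 3.55 of 39.0 and 57.2 TPM (-2.22 ± 0.44, adjusted p = 0.00068), and NCAPD2, a non-SMC subunit of condensin I, 10.2 and 8.01 of 98.7 and 147 (-2.30 ± 0.16).

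The other 5 come from different groups. AURKA, the Aurora kinase of centrosomes, kept 8.30 and 5.63 TPM (-2.31 ± 0.19), KIF22 11.8 and 9.59 (-2.35 ± 0.11) and SMC4, the condensin partner of SMC2, 15.4 and 9.76 (-2.37 ± 0.25). CCNA2 kept 15.5 and 11.1 TPM (-2.76 ± 0.16) and PTTG1 14.4 and 11.3 (-3.09 ± 0.36). These 8 genes held 18.8% and 18.4% of the counts of the 53 on day 8 and 52.9% and 57.8% on day 12. They were picked by what was left on day 12, so a larger share on that day follows from the choice. Several close partners of these genes were not among the 8. Cyclin B1 had a log2 fold change of -3.96 ± 0.15 beside -2.76 for cyclin A2, AURKB -6.08 beside -2.31 for AURKA, and SMC2 -3.77 ± 0.15 beside -2.37 for SMC4. The differences between partners were not tested. The percentages left in the 2 pairs of libraries had a Spearman rho of 0.93. That is a description over 53 genes, which share the libraries and their scaling.

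**Figure D3:**
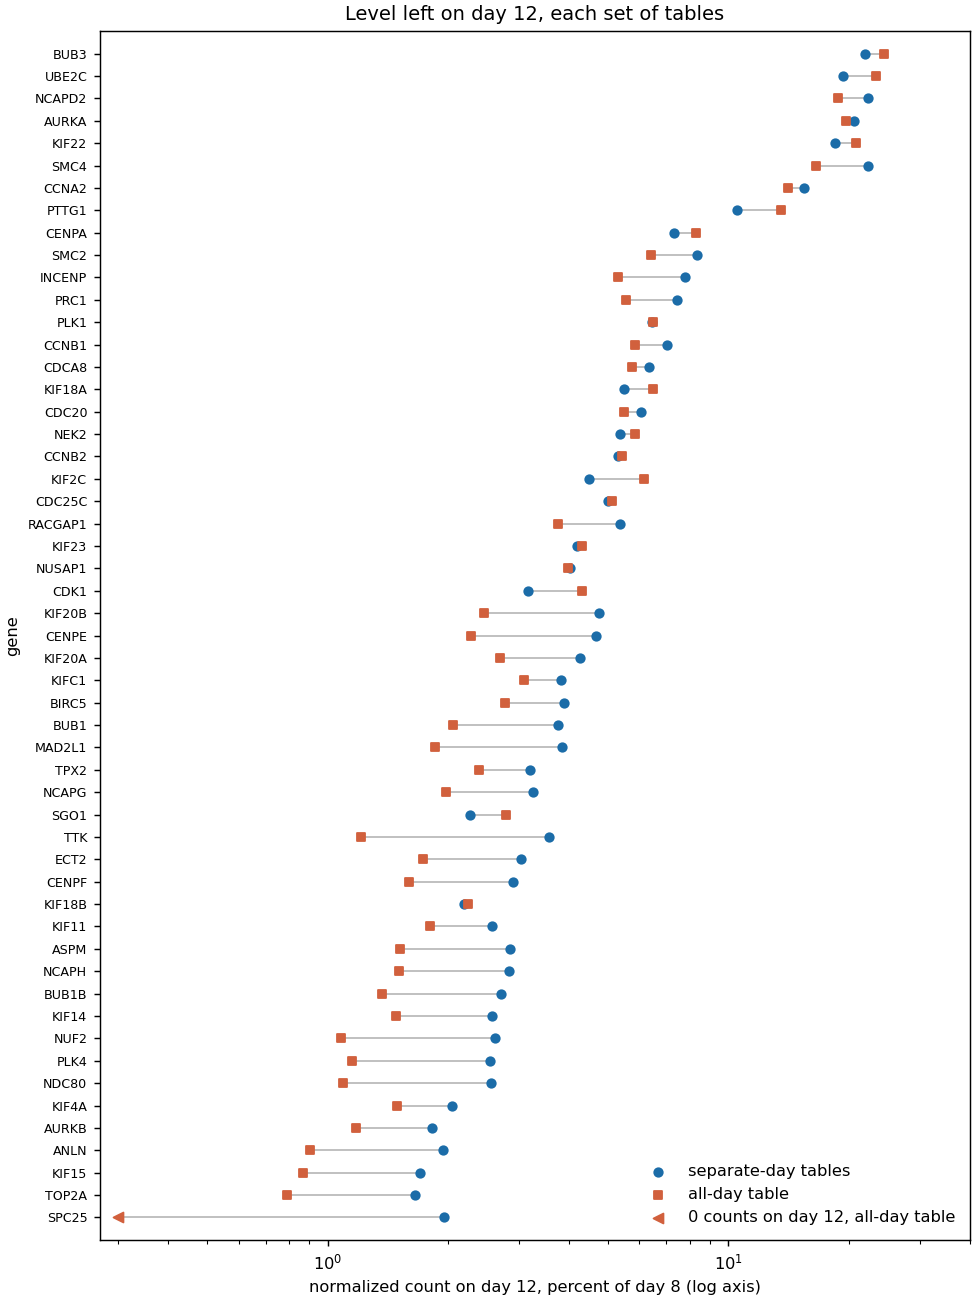
TMM-scaled count on day 12 as a percentage of that on day 8 (horizontal axis, log scale) for each of the 53 genes (vertical axis, ordered by the mean), with circles for the tables of separate days, squares for the table of all days and a triangle at the left edge for a count of 0. The 8 genes at the top sit above 10% in both, the highest value among the other 45 is 8.33%, and SPC25 has the triangle.

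**Figure D4:**
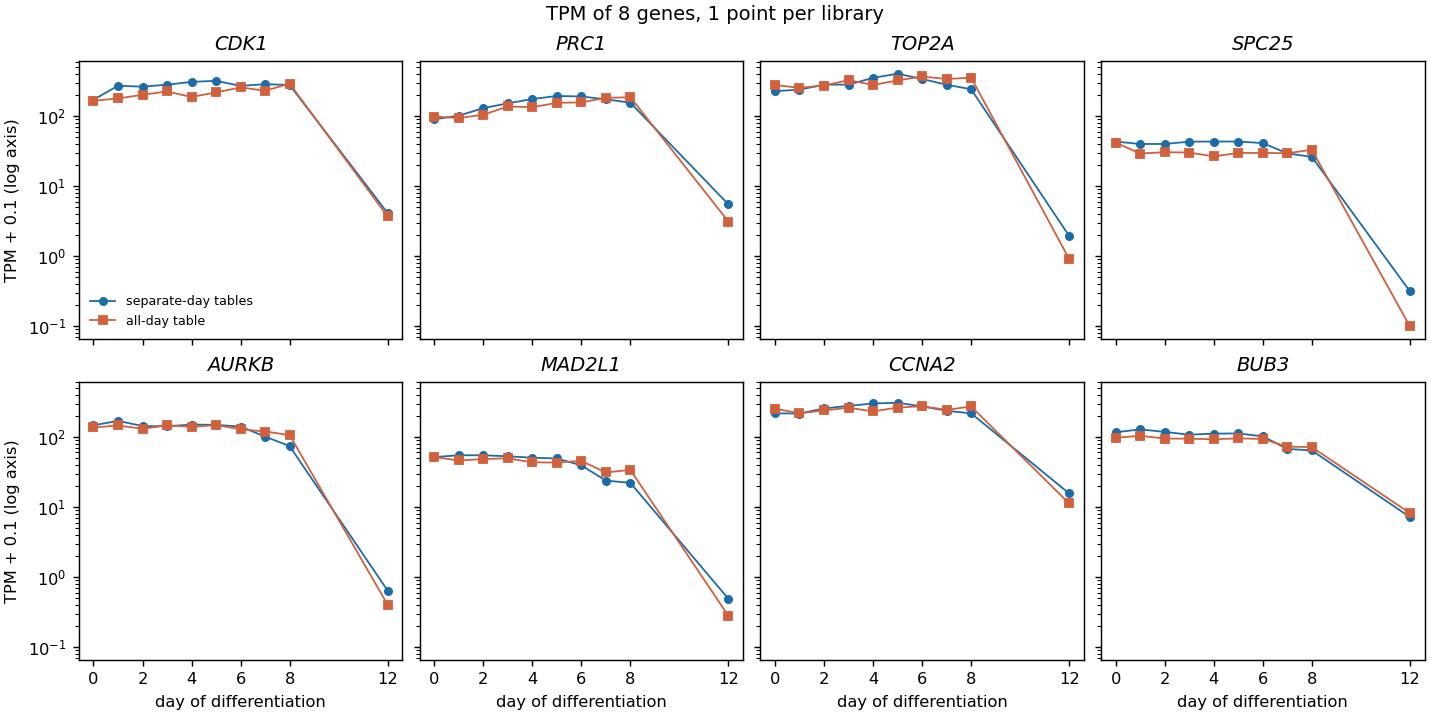
TPM with 0.1 added (vertical axis, log scale) of 8 genes against day of differentiation, 1 point per library, circles for the tables of separate days and squares for the table of all days. CDK1 and PRC1 are higher on day 8 than on day 0 in both libraries, AURKB and MAD2L1 are lower, and all 8 drop on day 12.

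Genes that work beside these 53 were followed in 7 further lists, whose counts on day 12 stand beside the 33.4% of all genes that fell and the 23.8% that rose. In the rest of the kinetochore and centromere 25 of 26 genes fell on day 12 (median -4.28). From day 0 to day 8, 11 of the 26 had risen, beside 11.5% of all genes tested in that comparison. CENPI, of the constitutive centromere network, had the lowest fitted value (-7.12, with 0.0497 and 0 TPM left), CENPU, the most abundant, fell by 3.10, and PMF1, of the MIS12 complex, was not called at -0.03 (adjusted p = 0.934), although limma on log2(TPM + 1) called it lower (-1.43). All 3 condensin II genes fell (median -3.08), with NCAPG2 at -5.30 and NCAPH2, the least changed, at -1.44.

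Of 11 cohesin genes 7 fell, 1 rose and 3 did not pass. ESPL1, separase, which cuts cohesin, fell by 5.41, whereas RAD21, the cohesin subunit it cuts and the most abundant of the list, was at 429 and 460 TPM on day 8 and 197 and 146 on day 12 (log2 fold change 0.05 ± 0.12 on the TMM scale, adjusted p = 0.741). On the TPM scale RAD21 was called lower (-1.38), and NIPBL, the loader that rose on the TMM scale (0.73 ± 0.16), turned to -0.65. Of 15 genes of the anaphase-promoting complex and its activator FZR1, 9 fell and 4 rose, from ANAPC4 (-2.37) to FZR1 (2.52 ± 0.17, adjusted p = 4.35e-08). FZR1, which keeps the complex active after mitosis and in G1 phase, stood at 20.4 and 21.7 TPM on day 0, 29.0 and 22.6 on day 8 and 57.4 and 55.9 on day 12. CDC20, its mitotic counterpart and one of the 53, fell from 227 and 260 TPM to 6.36 and 4.15 (-4.11 ± 0.14).

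Of 16 actomyosin and abscission genes tested 6 fell and 7 rose on day 12. CIT, citron kinase of the midbody, fell by 5.12, and RHOA, the most abundant, did not pass (-0.36, adjusted p = 0.059, edgeR). RHOA was called lower with limma on log2(TPM + 1) (-1.79) and with first and second libraries as a block (-0.36, adjusted p = 0.0166, edgeR). CHMP2A, a subunit of the ESCRT machinery that cuts membranes in many settings, rose (1.64 ± 0.19), from 176 and 198 TPM to 200.3 and 220. On the TPM scale the call was lost (0.17, adjusted p = 0.268, limma). SEPTIN9, with the highest fitted value, was at 0 TPM on day 8 and at 0.0157 or less on day 12, and was not called on the TPM scale. CEP55, which brings ESCRT to the midbody and was named after its values were seen, was already low on day 8: its TPM was 40.3 and 24.2 on day 0, 18.5 and 9.15 on day 4, 3.62 and 2.95 on day 8 and 0.249 and 0.0532 on day 12. Its log2 fold change was -2.68 ± 0.39 from day 0 to day 8 (adjusted p = 0.0137) and -3.06 ± 0.70 from day 8 to day 12 (adjusted p = 0.00203).

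Of 13 phosphatase and inhibitor genes 7 fell and 4 rose. CDC25A, which activates CDK1 and CDK2, was lowest (-6.37), PPP1CA, the most abundant, was at 0.51 ± 0.18 and PPP2R2A highest at 0.98 ± 0.14. PPP1CA (-0.94) and PPP2R2A (-0.14) were below 0 on the TPM scale, and the call of PPP1CA was also lost without the second library of day 8 (0.41) or of day 12 (0.28). Of 14 genes of the factors that drive transcription of mitosis genes 9 fell and 4 rose. MYBL2, the B-MYB subunit that joins the MuvB core in S phase, had 246 and 261 TPM on day 8 and 1.65 and 1.05 on day 12 (-6.13 ± 0.18), and FOXM1, which joins later, 57.6 and 62.7, then 0.578 and 0.243 (-5.77 ± 0.25). RBL1, the p107 protein, had the lowest value (-6.79), TFDP1, the most abundant, fell by 2.63, and LIN37, a MuvB subunit tied to repression, had the highest (1.39 ± 0.18), at 22.7 and 24.9 TPM on day 8 and 22.2 and 23.0 on day 12, which gave -0.07 on the TPM scale. From day 0 to day 8, 7 of the 14 had risen and 0 fallen, beside 11.5% higher and 13.7% lower of all genes tested. On the TMM scale MYBL2 was at 0.98 ± 0.18 and FOXM1 at 0.63 ± 0.17. Their lowest values over the alternatives run were 0.36 for MYBL2 and 0.017 for FOXM1. MYBL2 and FOXM1 were named after their values were seen, as was CHMP2A above.

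Since the 53 genes fell together, the 250 bases before their starts were read from RefSeq promoters on GRCh38.p14, on the strand of the gene. Of the 53 symbols 46 matched. AURKA, BIRC5, BUB3, TTK, UBE2C, TPX2 and RACGAP1 did not. Searched on both strands were TTTGAA, the core of the cell cycle homology region (CHR) known to bind MuvB complexes, and CCAAT, the box known to bind NF-Y. The motifs can share an end base where TTTGAA meets ATTGG, the opposite strand of CCAAT, and did so in 1 gene, CDCA8. TTTGAA was in 22 of 46 windows (47.8%), against 13.6% of 27305 promoters, CCAAT in 34 (73.9%) against 33.0%, and both in 17 (37.0%) against 4.85%. Repeated CCAAT boxes, 2 or more, were in 20 (43.5%) against 10.0% of all. The members were picked for one role, and no test was made of these shares.

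Selected windows are printed with both motifs in capitals. TOP2A (chr17:40417897-40418146, minus strand) and SPC25 (chr2:168890431-168890680, minus strand) had the lowest fitted values on day 12. NCAPD2 (chr12:6493852-6494101, plus strand) was one of the 8 genes with more left. CDK1 (chr10:60778081-60778330, plus strand) and PRC1 (chr15:90994536-90994785, minus strand) had 2 of the 3 largest rises to day 8. NDC80 (chr18:2571307-2571556, plus strand) has neither motif. The last base of each window lies just before the start in the RefSeq table, which can differ from the gene bounds in the files.
TOP2A: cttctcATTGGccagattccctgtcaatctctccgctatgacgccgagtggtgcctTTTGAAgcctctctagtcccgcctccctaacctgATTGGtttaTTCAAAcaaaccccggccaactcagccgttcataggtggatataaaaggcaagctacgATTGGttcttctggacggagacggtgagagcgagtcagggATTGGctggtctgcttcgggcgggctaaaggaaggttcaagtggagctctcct
SPC25: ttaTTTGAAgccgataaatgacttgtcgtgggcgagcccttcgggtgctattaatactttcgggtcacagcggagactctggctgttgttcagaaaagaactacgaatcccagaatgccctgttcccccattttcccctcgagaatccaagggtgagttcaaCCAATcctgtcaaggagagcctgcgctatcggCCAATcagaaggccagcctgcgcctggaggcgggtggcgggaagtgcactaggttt
NCAPD2: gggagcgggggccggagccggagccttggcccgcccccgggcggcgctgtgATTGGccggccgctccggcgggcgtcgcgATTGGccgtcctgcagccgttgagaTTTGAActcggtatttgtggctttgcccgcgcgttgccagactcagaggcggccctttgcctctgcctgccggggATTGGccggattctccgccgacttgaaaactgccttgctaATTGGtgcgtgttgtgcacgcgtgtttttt
CDK1: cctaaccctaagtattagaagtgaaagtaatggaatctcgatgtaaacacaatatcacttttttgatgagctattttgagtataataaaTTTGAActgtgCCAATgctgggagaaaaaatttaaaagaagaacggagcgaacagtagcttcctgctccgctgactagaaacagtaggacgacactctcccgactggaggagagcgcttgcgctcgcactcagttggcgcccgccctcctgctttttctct
PRC1: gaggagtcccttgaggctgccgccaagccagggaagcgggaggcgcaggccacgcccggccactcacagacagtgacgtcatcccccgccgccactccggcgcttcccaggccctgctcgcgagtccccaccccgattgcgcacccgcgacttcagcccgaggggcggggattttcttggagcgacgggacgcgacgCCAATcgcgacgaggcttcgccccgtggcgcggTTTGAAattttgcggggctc
NDC80: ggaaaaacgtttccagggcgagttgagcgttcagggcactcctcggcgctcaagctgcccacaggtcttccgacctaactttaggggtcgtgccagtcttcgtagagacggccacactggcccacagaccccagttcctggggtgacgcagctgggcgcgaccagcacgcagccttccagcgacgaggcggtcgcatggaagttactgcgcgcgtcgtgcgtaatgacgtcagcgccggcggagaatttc

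TOP2A holds 2 TTTGAA and 4 CCAAT matches, all of the latter on the opposite strand as ATTGG, and NCAPD2 holds 1 and 4. Their log2 fold changes on day 12 were -6.40 and -2.30. PRC1 has its TTTGAA at bases -20 to -15 and its CCAAT at -53 to -49, counted back from the start at -1. NDC80 fell by 5.81 with neither in its window. Over the 46 genes, 14 of 25 TTTGAA matches began within the last 40 bases, in 13 genes (28.3%), against 1.83% of all promoters, and 42 of 67 CCAAT matches began between bases -120 and -51. The 22 genes with TTTGAA had a median log2 fold change of -4.66 on day 12 and the 24 without it -4.91, both on the TMM scale. BUB3, UBE2C and AURKA, which kept more on day 12, had no matched window and are in neither median. A match says only that the letters are there.

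**Figure D5:**
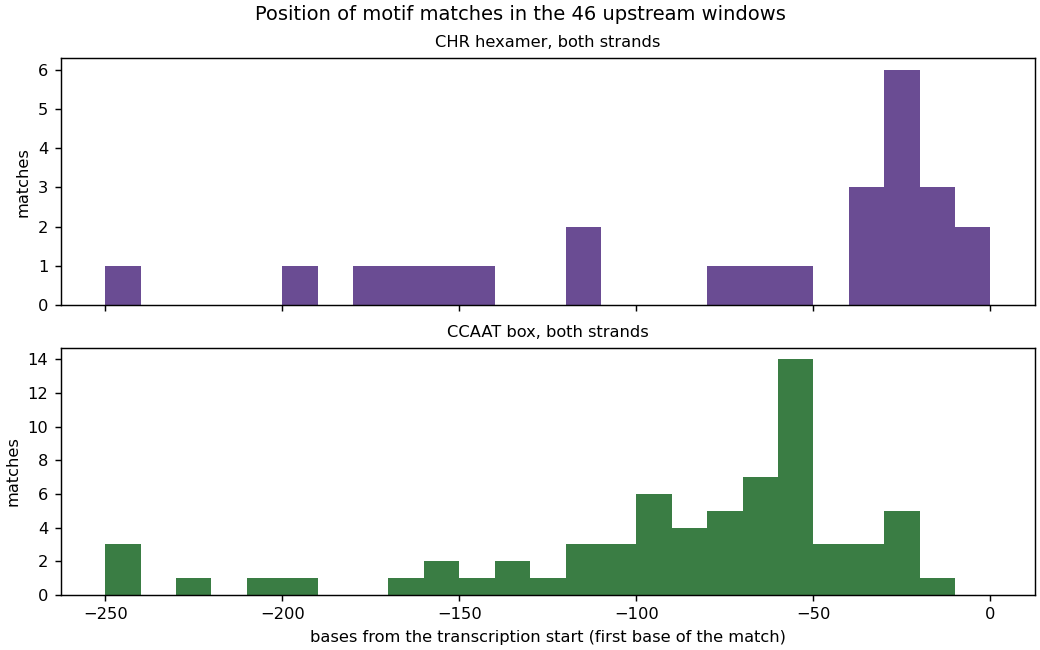
Number of matches (vertical axis) by distance in bases from the start of the gene (horizontal axis, bins of 10 bases) for TTTGAA (upper) and CCAAT (lower), both strands, in the 250-base windows of 46 genes. Of 25 TTTGAA matches 14 fall in the last 40 bases, and 42 of 67 CCAAT matches lie further back, between -120 and -51.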

How the data were processed

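Per the file headers the deposited tables hold, for each transcript and day, read counts, TPM and FPKM values made by the authors. The submitters' processing notes name Trimmomatic 0.38, HISAT2 2.1.0, StringTie 2.1.3b and hg38. Libraries were TruSeq Stranded mRNA; how reads shared by transcripts were divided is not given in the sources used here, so near copies such as KIF4B of KIF4A are uncertain. Of 63 value columns 40 were read (counts and TPM of 20 libraries). The 23 not used hold FPKM or repeat day 0 beside day 12.

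Transcripts were summed by gene. Counts were tested with edgeR 4.0.16 (quasi-likelihood, TMM, filterByExpr; R 4.3.3) and adjusted over all genes tested by Benjamini-Hochberg. Day 8 against day 0 was fitted on 4 libraries, and the other 4 comparisons on all 20 with 1 coefficient per day. SE is the absolute log2 fold change over the square root of F. TPM values were tested with limma 3.58.1 on log2(TPM + 1) and log2(TPM + 0.1), and counts also with DESeq2 1.42.0. Intervals and floors cover counting error only, and 3 counts were 0.0426 to 0.0575 CPM of the library totals, before TMM. The fits were also tested on simulated data with 1 set spread for all genes, not estimated from these libraries. The day 8 against day 0 fit (14925 genes) recovered 100 of 100 genes changed 4-fold and 27 of 100 changed 2-fold. The day 12 against day 8 fit (15714 genes) recovered 99 and 29. They also called 4 and 16 unchanged genes. These numbers need not hold for the real fits, whose spread differs.

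The members, gene lists and tests were chosen with earlier results of these data known. Named were the highest gene of each role group by mean TPM, the 3 highest and 3 lowest log2 fold changes of each comparison and up to 10 genes not called from day 0 to day 8; of each further list, the most abundant and the extreme genes. Named beyond that rule, after their values were seen, were CDK1, PRC1, CCNB1, CDC20, SMC2, SMC4, AURKA, KIF22, ANLN, ECT2, CCNB2, CDC25C, CEP55, MYBL2, FOXM1 and CHMP2A, where the rule does not give them for the comparison.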

Additional observations from a re-analysis of the deposited data

How the results depend on the processing

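The fall of all 53 genes on day 12 was called under every alternative run that tested them. With at least 10 counts in every library SPC25 was not tested, and 52 of 52 were lower. Calls up to day 8 moved more, among the 53 and among all genes. From day 0 to day 8, 11.5% of all genes were higher. DESeq2 gave 16.6%, the exact test 15.8%, all 20 libraries 17.7%, limma 5.01% and 5.54%, and no filter beyond 1 count 5.31%. From day 0 to days 4 to 6, 7.38% were higher. DESeq2 gave 10.2%, limma 4.53% and 4.62%, and the table of origin as a block 12.6%. With either day 0 library left out, calls among all genes also became fewer in both comparisons. Counts among the 53 follow. From day 0 to day 8, 26 genes were higher, against 30 with DESeq2, 29 with the edgeR exact test, 29 with all 20 libraries in the model, 4 with limma on log2(TPM + 1), 4 with log2(TPM + 0.1), which also called 1 lower (MAD2L1), 16 with no filter beyond 1 count, and 0 to 22 with 1 library left out (0 without either day 0 library). From day 0 to days 4 to 6, 18 were higher, against 26 with DESeq2, 11 and 7 with limma at the same 2 pseudocounts, 33 with the table of origin as a block, and 3 to 21 with 1 library left out (3 without the first and 10 without the second day 0 library). From days 4 to 6 to day 8, 2 were higher (11.9%), against 5 with DESeq2 (13.2%). At the 2 pseudocounts limma called 0 (4.14%) and 0 (3.83%) higher, and 13 and 11 lower, beside 31.1% and 31.2% of all genes. There was 1 with no filter beyond 1 count (6.21%) and 5 with at least 10 counts (16.4%). With the block 13 were higher (17.5%), and 1 when other days were left out of the model (8.52%). With 1 library left out the median of the 53 lay between 0.09 and 0.23. The cause was not tested. Values turned below 0 on the TPM scale with pseudocounts 1 and 0.1 for KIF22 from days 4 to 6 to day 8 (-0.15 and -0.15), and from day 8 to day 12 for NIPBL (-0.65 and -0.68), RAD21 (-1.38 and -1.39), PPP2R2A (-0.14 and -0.14), PPP1CA (-0.94 and -0.95) and LIN37 (-0.070 and -0.073). On the TPM scale calls from day 8 to day 12 were lost for CHMP2A and SEPTIN9 and gained for PMF1 and RHOA. The summed level on day 12 was 2.47% of day 8 in TPM and 6.25% in TMM-scaled counts. No paired analysis was possible because the columns carry no replicate number. The block above separates first from second libraries, which are not replicate labels, and the first libraries come from more than 1 table. Where a library was left out, the lone library of that day was assumed to vary like the others. With 2 libraries a day, calls rest on the spread of few samples.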

Other observations

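Of the 53 genes 42 had several transcripts in the files, and the leading transcript of 6 (ANLN, CDCA8, CENPE, KIF14, KIF18A and KIF20B) was another on day 12 than on day 8 in both libraries. These genes were picked after their values were seen, from low counts, and how reads were divided among transcripts is not given in the sources used here. In KIF18A, a kinesin that dampens chromosome movement, XM_017018379 took 5.36% and 2.70% of the gene's TPM on day 8 and 90.7% and 91.4% on day 12, when it had 95 and 96 counts. In ANLN, XM_006715746 went from 5.11% and 4.17% to 100% in both, with 87 and 44 counts.

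Transcripts also shifted in 2 of the genes with more left on day 12. In UBE2C, NM_007019 took 92.9% and 89.8% of its TPM on day 8 and 49.3% and 31.6% on day 12, and NM_181801 3.56% and 1.23%, then 35.9% and 51.0%, with 50 and 90 counts. In AURKA, NM_001323305 took 16.6% and 13.2% of its TPM on day 8 and 41.2% and 64.1% on day 12, with 344 and 436 counts.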
